A study of Mus musculus with 2 samples.

Results

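The imprinted genes Magel2, Nnat, Blcap, Plagl1 and Gnas had 4 distinct regions in a table of 276 regions whose methylation differed between 2 mouse hippocampus libraries. The regions were found by the gene symbols that the table assigns to them, and each was counted once, since Nnat and Blcap share a region. The table assigns 296 gene symbols in all. Methylation was read by reduced representation bisulfite sequencing (RRBS), which cuts DNA with the enzyme MspI at CCGG. Cytosines left unconverted in the CpG-rich fragments are counted as methylated. The choline library came from hippocampi of offspring whose dams were supplemented, with choline chloride at 5 g/kg of diet, between embryonic day 9 and birth. The control library came from offspring of dams on the normal diet, with choline chloride at 1.1 g/kg. All offspring ate a basal diet after birth, and their behaviour was tested at 2 months, while neither labels nor design text state the strain, the age at which tissue was taken or the number of animals behind a library. There was 1 library per group and thus no replicate check, and the intervals below cover counting error only and describe libraries, not diets.

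At an imprinted gene the allele from a particular parent is silenced, and the silent and active alleles carry different methylation that was set in the egg or sperm or acquired later near such a mark. Where CpG sites are methylated on the allele from a single parent, bulk DNA holds equal numbers of methylated and unmethylated copies, and the level read is 50%. Magel2, Nnat and Plagl1 are expressed from the paternal allele, with methylation of the maternal allele around their starts, while the Gnas locus makes maternally, paternally and biallelically expressed transcripts from separate starts. Imprinted genes are highly expressed in brain and are known for roles in growth, feeding and behaviour.

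The regions were chosen by the gene symbols and, through the table itself, selected on their difference in methylation level between these libraries. Every listed region differed by at least 10 percentage points and, among the 264 regions with a level above 0 in both libraries, by at least 1.50-fold. The levels and differences below are therefore a description, and no test was made of them. The fold limit bears on imprinted regions in particular. With no smaller fold listed, a region at 50% in either library would have to be at or below 33.3% or at or above 75% in the other, and none at 50% in both could appear. Plagl1 (1.53-fold), Gnas (1.54-fold) and Nnat with Blcap (1.61-fold) lay just inside this limit, and Magel2 (1.94-fold) lay further inside. The adjusted p-values in the authors' deposited table ranged from 1.76e-12 at Plagl1 to 0.00552 at Magel2.

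The sequences below give the CpG and CCGG content of stretches at some of these genes. The first pair below are the 250 bases before the transcription start of Plagl1 and of Magel2, the genes whose region the table marks as promoter, and the last is the coding exon of Nnat that the listed region covers. They are from RefSeq on GRCm38.p6 and were looked up by gene, since the table's own coordinates are on another build. All are on the plus strand, and capitals mark CpG sites.
Plagl1, chr10:13090582-13090831: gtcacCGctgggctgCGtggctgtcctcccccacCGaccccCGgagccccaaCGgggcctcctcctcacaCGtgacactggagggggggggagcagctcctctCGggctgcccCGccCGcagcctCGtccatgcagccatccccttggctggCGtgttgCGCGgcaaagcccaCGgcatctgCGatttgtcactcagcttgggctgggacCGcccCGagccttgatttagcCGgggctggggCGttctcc
Magel2, chr7:62376729-62376978: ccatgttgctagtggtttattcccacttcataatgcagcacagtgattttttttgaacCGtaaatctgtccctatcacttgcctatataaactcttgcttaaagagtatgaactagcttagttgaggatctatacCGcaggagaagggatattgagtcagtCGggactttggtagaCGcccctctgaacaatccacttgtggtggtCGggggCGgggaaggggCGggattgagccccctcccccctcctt
Nnat, chr2:157561542-157561634: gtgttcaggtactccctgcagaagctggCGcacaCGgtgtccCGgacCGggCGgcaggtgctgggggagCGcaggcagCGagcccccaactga

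The Plagl1 window held 19 CpG sites and 2 copies of CCGG, a motif that reads the same on both strands. The Magel2 window held 7 CpG sites and no CCGG. Over the 32851 such windows of mouse genes in the RefSeq table the median was 6 CpG sites (quartiles 2 and 16), and 47.1% held a CCGG. The Nnat exon held 7 CpG sites and 2 copies of CCGG in 93 bases. Neither promoter window reaches the listed region, which begins 106 bases after the start of Plagl1 and 344 bases after the start of Magel2 in the table's own annotation.

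Plagl1 encodes a zinc finger transcription factor that restrains cell growth, and it heads a network of co-expressed imprinted genes. Its region (chromosome 10, 12810700 to 12810878 as deposited, 179 bases, 21 CpG sites) covered the last 131 bases of a 5′ UTR exon and the first 48 bases of the following intron, 106 to 284 bases after the start. The methylation mark that Plagl1 inherits from the egg is known to lie around this start. In the control library 314 of 817 CpG calls were methylated, a level of 38.4% (exact Clopper-Pearson 95% interval 35.1 to 41.9). In the choline library 343 of 585 calls were methylated, or 58.6% (54.5 to 62.7). The choline library was higher by 20.2 points (Newcombe interval on calls 14.9 to 25.3), with the control level below 50% and the choline level above it.

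Nnat encodes neuronatin, a small membrane proteolipid of developing neurons and endocrine cells, and it lies within an intron of Blcap, a gene on the other strand named for bladder cancer. The shared region (chromosome 2, 157387273 to 157387479, 207 bases, 24 CpG sites) covered the whole 93-base coding exon printed above, 109 bases of the 3′ UTR and the last 5 bases of the intron before it. It lay entirely in the Blcap intron. Methylated calls numbered 190 of 494 in the control library, or 38.5% (34.2 to 42.9). The choline library had 271 of 439 methylated calls, or 61.7% (57.0 to 66.3), which was higher by 23.3 points (16.9 to 29.4). As at Plagl1, the levels lay on opposite sides of 50%, which the fold limit required once the lower level was between 33.3 and 50%. The mean of the levels was 50.1%, against 48.5% at Plagl1.

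Magel2 is a gene without introns in the Prader-Willi cluster and encodes a MAGE protein that aids ubiquitination in protein recycling. Its region was the smallest of the 4 (chromosome 7, 69522209 to 69522253, 45 bases, 6 CpG sites) and crossed the start codon, with 27 bases in the 5′ UTR and 18 in the coding sequence. The control library had 47 of 178 methylated calls, or 26.4% (20.1 to 33.5). The choline library had 20 of 39, or 51.3% (34.8 to 67.6), higher by 24.9 points (8.28 to 40.9). Each CpG was covered by 29.7 control reads and 6.5 choline reads on average. The choline value was the closest of all 8 to 50%, and it was also the one read from the fewest calls.

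Gnas encodes the alpha subunit of the stimulatory G protein and, from other starts, the extra-large form XLαs and the secretory protein NESP55. The Gnas region (chromosome 2, 174124574 to 174124926, 353 bases, 39 CpG sites) lay within a coding exon of 2356 bases, the length of the RefSeq exon that is specific to XLαs, starting 1211 bases from the exon's first coding base. For other Gnas transcripts the same bases are intron. In RefSeq this exon holds 157 CpG sites, each counted once, and 18 copies of CCGG. The deposited count of 39 may count both strands, so it is not set against the RefSeq count. The control library had 335 of 814 methylated calls, or 41.2% (37.8 to 44.6). In the choline library 147 of 549 calls were methylated, or 26.8% (23.1 to 30.7). Choline minus control was -14.4 points (-19.3 to -9.28). Gnas was the single region of the 4 that was lower in the choline library, and both of its levels were below 50%.

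**Figure D1:**
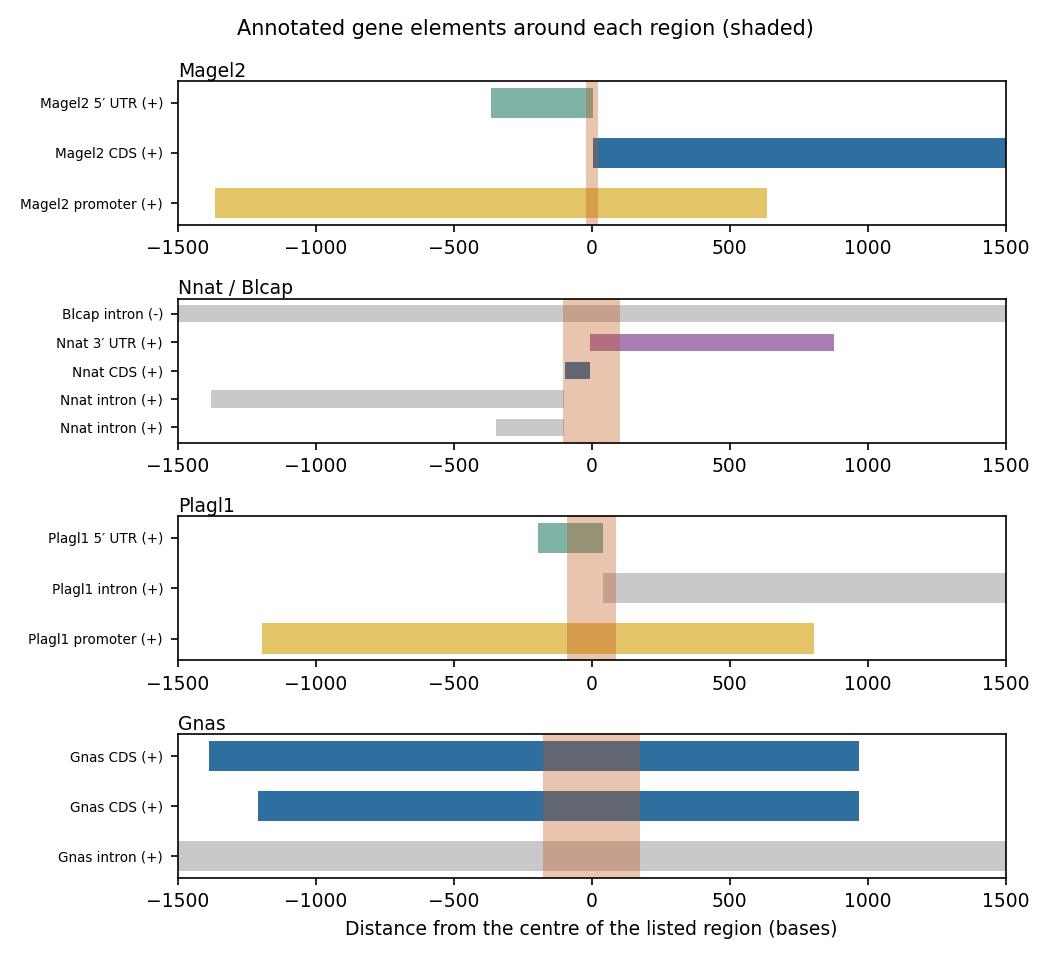
Annotated elements of the deposited table around each imprinted gene region (shaded), against distance in bases from the region's centre, with the strand in parentheses and elements drawn up to 1500 bases away. The Magel2 region crosses the border of 5′ UTR and coding sequence, that of Nnat covers a coding exon inside the Blcap intron, that of Plagl1 crosses from the 5′ UTR into an intron, and that of Gnas lies inside a long coding exon.

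Whether each region lies where only the allele from a single parent is methylated was not tested, so 50% serves as a reference only. Against the level of 50%, the control library was lower at all 4 regions. The gap was 8.85 points at Gnas, 11.5 at Nnat with Blcap, 11.6 at Plagl1 and 23.6 at Magel2. The choline library was above 50% by 11.7 points at Nnat with Blcap, by 8.63 at Plagl1 and by 1.28 at Magel2, and below it by 23.2 points at Gnas. On CpG calls, 50% was inside the exact interval for 0 of 4 regions in the control library, against 5.02% of the 259 listed regions whose calls could be recovered. In the choline library it was inside for 1 of 4, which was Magel2, against 7.72% of the 259. It was inside in both libraries for 0 of 4, against 0.386%. With both libraries' calls added together the level was 49.4% at Nnat with Blcap (46.2 to 52.7), 46.9% at Plagl1 (44.2 to 49.5), 35.4% at Gnas (32.8 to 38.0) and 30.9% at Magel2 (24.8 to 37.5). Nnat with Blcap was thus the single region whose summed interval held 50%, and the control library supplied most of the calls in each sum. That sum averages libraries whose own intervals on calls did not overlap and did not hold 50%. Nothing about a mixture of parental alleles is read from it.

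Calls on the same read are not independent, and at a locus where alleles differ a read tends to be methylated throughout or not at all. When the mean depth, rounded, stood for the number of reads, the intervals widened. At Plagl1, with 39 control and 28 choline reads, they ran from 23.4 to 55.4% and from 37.2 to 75.5%. At Nnat with Blcap 21 and 18 reads gave 18.1 to 61.6% and 35.7 to 82.7%. The Gnas intervals, from 21 and 14 reads, were 21.8 to 66.0% and 8.39 to 58.1%. With 30 and 6 reads at Magel2 they were 12.3 to 45.9% and 11.8 to 88.2%. On this scale 50% was inside the interval for 3 of 4 regions in the control library, all but Magel2, against 23.6% of the 276 listed regions, and for 4 of 4 in the choline library, against 57.2%. It was inside in both libraries for 3 of 4, against 15.6%. These counts depend on how many reads are assumed. With 2 reads per unit of depth the Gnas choline interval was 10.7 to 44.9% and left out 50%. The Plagl1 control interval was then 27.7 to 50.2%. In the choline count Magel2 rested on 6 reads, where even 1 methylated read gives an interval reaching 64.1%. Its place in that count was thus nearly fixed by depth.

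The difference between libraries had Newcombe intervals on reads of -5.22 to 39.9 points at Plagl1, -7.77 to 48.4 at Nnat with Blcap, -12.6 to 57.0 at Magel2 and -40.9 to 17.6 at Gnas. With the rounded mean depth as the number of reads, the interval thus included 0 at each of the 4 regions. More reads than the mean depth may lie on a region if a read covers only some of its CpG sites. Intervals on the difference were not computed for a larger number of reads. Whether they would still include 0 was not tested, so no absence of a difference is read from them. The deposited values are averages over a region. Single-read patterns were not analysed here, so a mixture of parental alleles cannot be told apart from a mixture of cell types or from partial methylation of every copy.

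**Figure D2:**
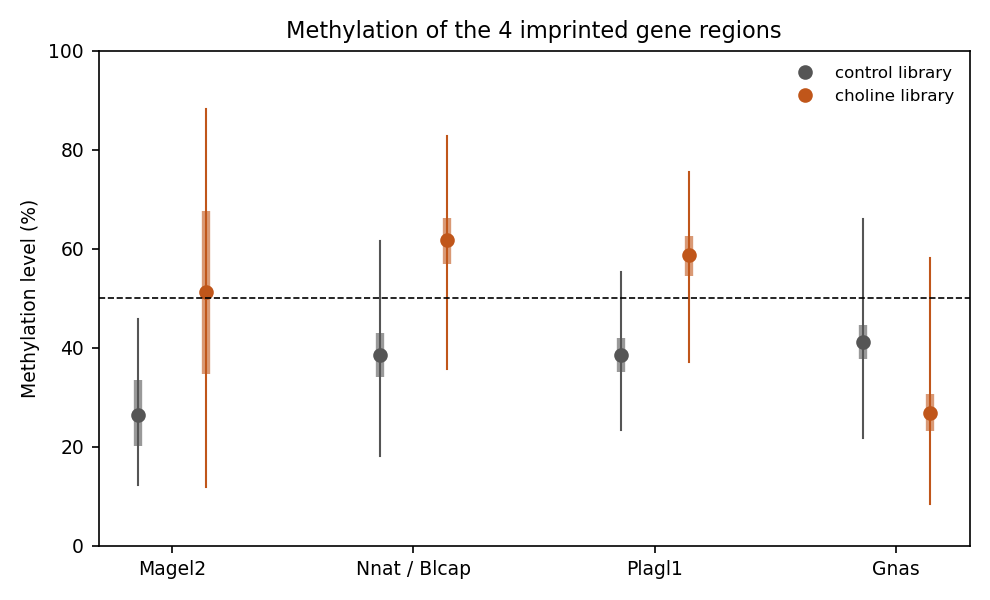
Methylation level in percent at the 4 regions in the control (grey) and choline (orange) library, with exact 95% intervals on CpG calls (thick bars) and on reads (thin bars) and a dashed line at 50%. The control points lie between 26.4 and 41.2%, all below the line, and the choline points lie above it at every region but Gnas.

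Set beside the whole table, 3 of the 4 regions were higher in the choline library, and so were 73.6% of all 276 listed regions, so the direction does not set them apart. A difference of at least 20 points was seen at 3 of 4 regions and at 9.06% of all listed regions. As the difference is what placed regions in the table, nothing is read from this. The median level of the 4 regions was 38.4% (control) and 55.0% (choline), where the medians over all listed regions were 15.9% and 20.1%. The choline level ranked 3rd of 276 at Nnat with Blcap, 7th at Plagl1, 16th at Magel2 and 90th at Gnas. The control level ranked 15th at Gnas, 17th at Nnat with Blcap, 18th at Plagl1 and 68th at Magel2. Both levels enter the difference that placed regions in the table, so nothing is read from these ranks. Levels on opposite sides of 50% were found at 3 of 4 regions and at 24 of the 276 (8.7%). By the fold limit, a lower level between 33.3 and 50% requires the other level to be at or above 50%. This was so at Plagl1 and at Nnat with Blcap, and nothing is read from this count either. For the summed calls, which average over differing libraries, a level between 40 and 60% was found at 2 of 4 regions and at 7.97% of all listed regions. The 2 were Nnat with Blcap and Plagl1, where the fold limit had already placed the levels on opposite sides of 50%. Nothing is read from that count.

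Regions of genes outside the imprinted lists had similar pairs of levels. The listed region nearest in level to Plagl1 was that of Kcp, at 38.2% (control) and 59.5% (choline), and the next was that of Oprd1, the delta opioid receptor gene, at 38.0% and 59.9%. For Nnat with Blcap the nearest were the same regions in the other order, at distances of 1.85 and 2.29 points over the 2 levels. Magel2 lay nearest to Fbf1 (29.6% and 51.8%) and Nrap (29.7% and 50.5%). Gnas lay nearest to Zfp503 (39.9% and 26.4%).

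**Figure D3:**
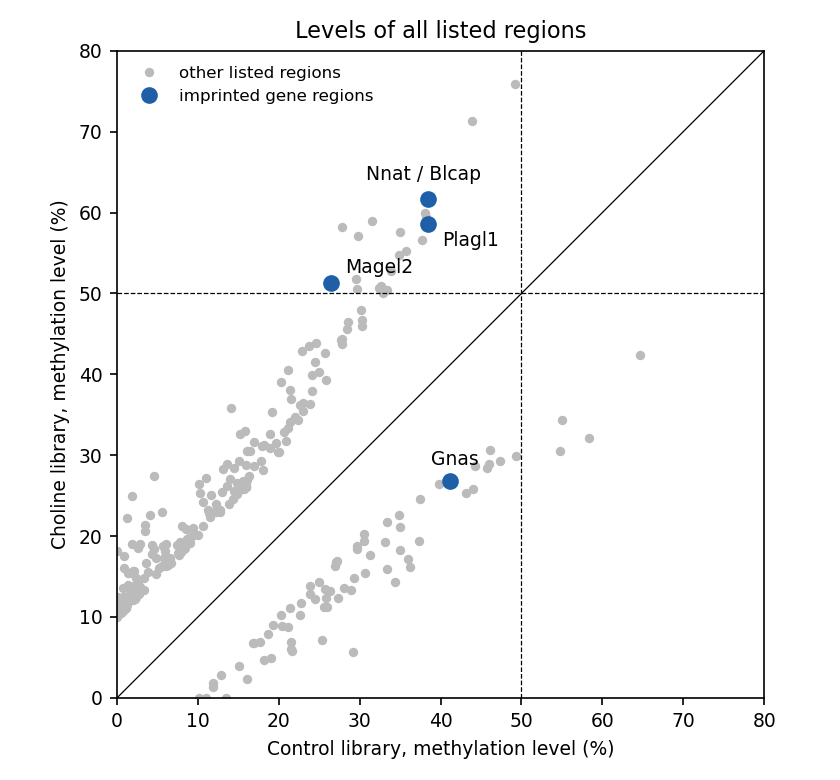
Methylation level of each listed region in the control library (horizontal axis, percent) against the choline library (vertical axis, percent), with the 4 imprinted gene regions in blue, equality as a solid line and 50% as dashed lines. The band along the diagonal holds no region, since none with a smaller difference was listed. Plagl1, Nnat with Blcap and Magel2 lie in the upper left with 50% between their levels, and Gnas lies in the lower left.

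The regions were also compared in sequence features, of which the number of CpG sites, at least 5 in every listed region, may itself bear on listing. CpG density was alike in the 4 regions, at 11.0 sites per 100 bases at Gnas, 11.6 at Nnat with Blcap, 11.7 at Plagl1 and 13.3 at Magel2, above the median of 8.92 over all listed regions and inside the quartiles of 5.30 and 14.3. The Gnas region was the longest of all 276, and 9 listed regions had more than its 39 CpG sites. Nnat with Blcap and Plagl1 ranked 33rd and 37th by number of sites, whereas Magel2, with 6, was below the median of 9. Coding sequence was touched by 3 of 4 regions (38.4% of all listed regions), introns by 3 (58%), a promoter by 2 (34.8%), a 5′ UTR by 2 (14.9%) and a 3′ UTR by 1 (5.8%).

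Depth was higher in the control library at all 4 regions, as it was at 79% of the 276. The ratio of control to choline depth was 1.13 at Nnat with Blcap, 1.40 at Plagl1, 1.48 at Gnas and 4.56 at Magel2, where the median over all listed regions was 1.49. At Plagl1 the mean control and choline depths were 38.9 and 27.9 reads per CpG, at Nnat with Blcap 20.6 and 18.3, and at Gnas 20.9 and 14.1. Of the 4 regions Magel2 had both the largest ratio of depths and the largest difference in level, and the part of depth in that difference was not tested. With 10 or more reads per CpG required of each library Magel2 is left out, and 2 of 3 regions were higher in the choline library, against 67.7% of the 192 listed regions of that depth.

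**Figure D4:**
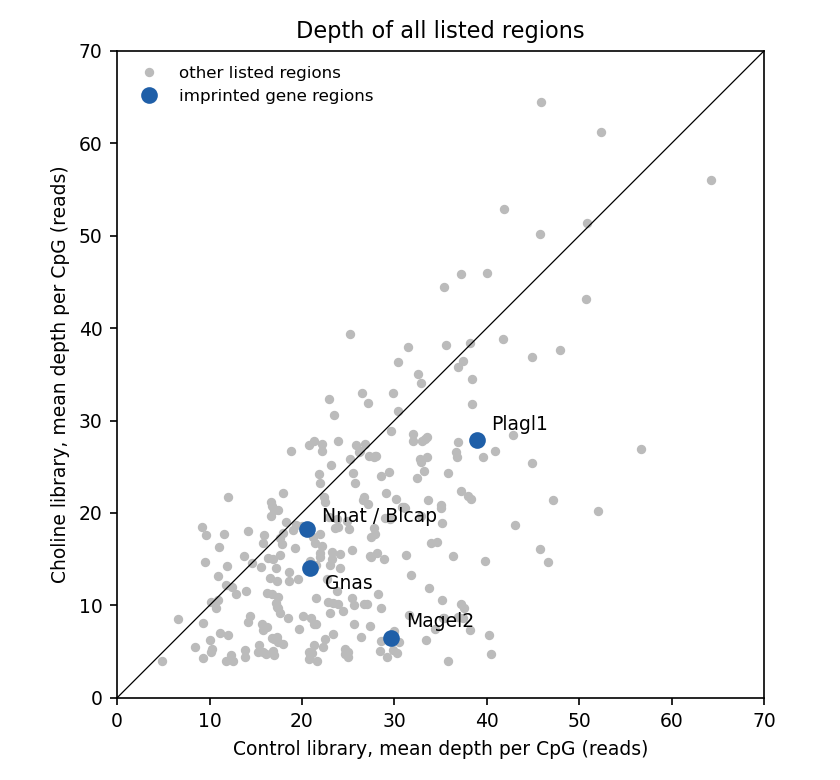
Mean depth per CpG, in reads, of each listed region in the control (horizontal axis) and choline library (vertical axis), with the 4 imprinted gene regions in blue and equality as a line. All 4 lie below the line, and Magel2 lies farthest from it, at 29.7 and 6.5 reads.

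A wider list held 95 genes reported as imprinted in mouse, some of them in certain tissues only, and 5 of these had a listed region, which are the genes described here. The other 90 had none. The number of genes covered by the libraries is not known, so no share over all genes can be set beside these counts. Whether they are many or few cannot be said. In the Prader-Willi and Angelman cluster Magel2 was the single gene of 10 with a region, so Ndn, Snrpn and Ube3a had none. None of the 16 genes of the Kcnq1 and H19 clusters, the 6 of the Dlk1 and Meg3 cluster, the 17 of the Peg1, Peg10 and Peg3 clusters or the 4 of the Igf2r cluster had a listed region. Whether those genes were covered, or were read near 50% in both libraries, is not known from a list of differing regions. No listed region lay within 1 Mb of Plagl1, Nnat or Magel2. Npepl1, 188 kb from the Gnas region and on the same chromosome, had levels of 10.6% (control) and 21.3% (choline), higher in the choline library by 10.6 points and so opposite in direction to Gnas.

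The tissue label could not be checked against marker expression, since the table holds methylation only. Of genes that mark cell types of hippocampal tissue, 2 of 10 neuron markers had a listed region, Rbfox3 (15.8% and 33.0% in the control and choline library) and Calb2 (28.4% and 45.5%), and so did 1 of 6 astrocyte markers, Aldh1l1 (31.5% and 58.9%). Neither the 7 oligodendrocyte markers, the 8 markers of microglia and blood nor the 9 of endothelium, choroid plexus and meninges had one. For these counts, too, no share over all covered genes is known. All 3 marker regions were higher in the choline library, as were 73.6% of all listed regions, and the part of cell makeup in these levels was not tested.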

How the data were processed

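The 2 RRBS libraries were available as 1 deposited table of differing regions. The design text describes trimming by cutadapt and alignment by SOAPaligner 2.21 with up to 5 mismatches, and the submitters' processing notes also name CASAVA 1.8. No source used here names the region caller or its thresholds. The deposited methylation fraction is the share of methylated CpG calls. Depth was deposited as a coverage signal averaged over a region's CpG sites. The deposited count of CpG sites may count both strands, which the sources do not say. Counts from RefSeq sequence take each site once, so they are not compared with the deposited counts. The deposited adjusted p-values fitted a Benjamini-Hochberg adjustment by the authors over 365 tests or a multiple (whole ranks in 83% of regions), more than the 276 regions here. The product of level, depth and sites gave whole calls (tolerance 1e-06) in 259 of 276 regions, including all 4 described.

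The 725 lines, of which 160 were exact copies, were reduced to distinct regions, and symbols missing letters in 70 promoter lines, 2 of them of these genes, were restored from other lines of the same region. Coordinates are printed as deposited: the last end on chromosome 7, 148524799, exceeds the GRCm38 length of 145441459. The design text names mm10, which is GRCm38, and mm9 is also named in the sources. Which build the coordinates are on was not established. The coding exons of Magel2, Nnat and Gnas had the same length as in RefSeq GRCm38.p6.

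Intervals are exact Clopper-Pearson or Newcombe at 95% (scipy 1.17.1, Python 3.11.15). Their code was tested on simulated independent calls only, so coverage for calls that share a read was not tested. No coverage minimum was set, and minima of 10 and 20 were alternatives, with other units, intervals and thresholds. All 5 genes are named with full values, with the 2 listed regions nearest in level to each region by Euclidean distance, of which 1 is not reported here. Members and lists were chosen with earlier results of these data known.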

Additional observations from a re-analysis of the deposited data

How the results depend on the processing

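The number of regions higher in the choline library, 3 of 4, was 2 of 3 at a depth of at least 10 or with at least 10 CpG sites, which both leave out Magel2, 1 of 1 (Plagl1) at a depth of at least 20, 3 of 4 at an adjusted p below 0.01 or a difference of at least 20 points, and 4 of 5 when Nnat and Blcap were counted apart. The count with 50% inside the control interval, 0 of 4 on calls, was 3 with reads or 2 reads per unit of depth, and 1 when a level between 40 and 60% was the criterion. In the choline library, 1 of 4 on calls, it was 4 with reads, 3 with 2 reads per unit of depth, 2 for a level between 40 and 60%, and 0 with a depth of at least 10, a depth of at least 20 or at least 10 CpG sites, since Magel2 is then left out. Wider intervals follow from counting fewer units. Wilson intervals changed neither count. No share over all listed regions was computed for 2 reads per unit of depth. The same holds for a level between 40 and 60% in a single library and for at least 10 CpG sites. Nor was one computed for a depth of at least 20 or an adjusted p below 0.01. Nothing about the 4 regions against the whole table is read from those counts. The 4 differences are deposited values and were the same wherever a region was retained. No paired analysis was possible because each group had 1 library, and for the same reason no library could be left out. Depth limits these results: no molecular identifiers are stated, so fewer molecules than reads may stand behind a level.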
